A study of Homo sapiens with 2 samples.

Results

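The clustered protocadherins of chromosome 5 are neighbouring genes for cell-surface adhesion proteins of the cadherin superfamily, in the groups alpha, beta and gamma. They were taken here from the rows of the expression table with 1 gene symbol in the platform annotation. Every row whose symbol is that of an alpha, beta or gamma protocadherin was kept, with 1 row per gene. This gave 16 genes of the 17663 measured genes with 1 symbol. All 16 were beta genes, PCDHB1 to PCDHB16, which are all of the 16 protein-coding beta genes in RefSeq, and each had 1 row. None of the 15 alpha genes, the 22 gamma genes or the 3 beta pseudogenes of RefSeq was among the genes with 1 symbol. Rows with more than 1 symbol were not used, and these genes were not analysed here. Therefore, the values below describe the beta cluster.

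The cells were CP-A, a line without dysplasia from Barrett's esophagus that was made immortal by a stably introduced telomerase gene (TERT). Control cells gave 1 array, and cells kept at pH 6.4 + deoxycholic acid (DCA) gave the other. Per the methods, CP-A went through 3 exposures of 48 h to medium acidified with hydrochloric acid with 100 µM DCA, a secondary bile acid, with growth in basal medium between them. The control cells are labelled as control, and the paper describes them as not exposed to acid or DCA. Both cultures came from the same line. The methods describe arrest in mitosis with nocodazole before RNA extraction for RT-qPCR, and whether the RNA of the arrays came from arrested cells is not stated. Values are log2 expression levels from Clariom S arrays. Each gene has probes of its own there, so the levels do not rank the genes by abundance, and the quartiles of an array are given only to show how strong a signal was. Differences are pH 6.4 + DCA minus control, and a gene is called higher or lower at 2-fold or more, the threshold of the methods. There was 1 array per condition, so no difference has a replicate check, no test across samples is possible, and neither an error nor a p-value is given.

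Most clustered protocadherins bind their own kind on a neighbouring cell, and neurons use different sets of them to tell their own branches from those of other cells. Every gene has its own promoter, and the choice among promoters is known to involve DNA methylation, the DNA-binding protein CTCF and cohesin loops to distant enhancers. Beta genes differ from alpha and gamma genes in that a single exon encodes the whole protein, with no constant exons joined to it. Promoters of these clusters are known to share a conserved element with a CGCT core, a place of CTCF binding, and to become methylated in several kinds of tumor. Promoter methylation and DNA copy number were not analysed here.

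The beta promoters share a short element, and the sequences below show it for some of the genes with a promoter sequence. The genes were picked by the size of their array difference or by changes in the element. PCDHB7, whose element also differs, is not printed. RefSeq promoters, of 250 bases before to 50 bases after the gene start in GRCh38.p14, were found for 14 of the 16 genes, all except PCDHB6 and PCDHB11. The longest word held by all but 1 of these 14 promoters was GGTGGCGCT, in 13 promoters, and in 10 of them it continued to GGTGGCGCTGCAG. On both strands of 34943 RefSeq promoters of all genes, members included, the shorter word was found in 0.501% and the longer in 0.0429%, and neither was in any of 33 alpha and gamma promoters. The longer word contains the shorter. Both were read from these promoters, and a match is a description of letters, not evidence of bound protein. In the windows that follow, all on the plus strand, the 13 bases of the element are in capitals.
PCDHB10: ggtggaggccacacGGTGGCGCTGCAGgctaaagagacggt
PCDHB15: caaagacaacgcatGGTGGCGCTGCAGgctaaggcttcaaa
PCDHB14: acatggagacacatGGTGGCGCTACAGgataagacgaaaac
PCDHB13: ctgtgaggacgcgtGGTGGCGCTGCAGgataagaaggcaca
PCDHB8: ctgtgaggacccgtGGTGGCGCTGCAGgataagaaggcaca
PCDHB3: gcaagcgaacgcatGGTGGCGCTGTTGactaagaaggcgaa
PCDHB1: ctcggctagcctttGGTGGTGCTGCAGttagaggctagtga
These windows lie at chr5:141192296-141192336 for PCDHB10, chr5:141245311-141245351 for PCDHB15, chr5:141223260-141223300 for PCDHB14, chr5:141213862-141213902 for PCDHB13, chr5:141177774-141177814 for PCDHB8, chr5:141100390-141100430 for PCDHB3 and chr5:141051334-141051374 for PCDHB1.

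PCDHB10, PCDHB15 and PCDHB14 are shown because they had the largest positive differences among genes with a promoter sequence, and PCDHB13 and PCDHB8 because they had the largest negative ones. Counted from 1 at the 5′ end of the element, PCDHB1 differs by C6T, inside the shorter word, PCDHB3 by C11T and A12T, PCDHB7 by A12T and PCDHB14 by G10A. In the 13 promoters with the shorter word, the element began between 2 and 84 bases before the gene start, with a median of 66. The 250 bases before the start of PCDHB10, the only beta gene past 2-fold upward, at chr5:141192103-141192352 on the plus strand, are given to show the setting of the element.
PCDHB10: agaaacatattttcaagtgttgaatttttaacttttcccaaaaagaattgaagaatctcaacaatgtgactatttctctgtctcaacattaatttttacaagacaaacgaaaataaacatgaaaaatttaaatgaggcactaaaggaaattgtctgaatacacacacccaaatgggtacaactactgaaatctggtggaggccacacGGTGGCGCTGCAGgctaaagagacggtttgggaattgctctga

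The 16 beta genes differed in both directions, and most differed by less than 2-fold. PCDHB6 was lower after pH 6.4 + DCA by 2-fold or more, PCDHB10 was higher by 2-fold or more, and 14 genes were neither. Of all genes, 2.51% were higher and 4.12% were lower by that rule. Among 12866 other genes whose mean level lay within the range of the beta genes, these shares were 2.74% and 4.47%. A count of 1 in each direction among 16 genes lies near these shares and is not read as a result about the beta genes. Of the 16 genes, 10 had a difference above 0 (62.5%, or 75% with each array centred on its median, where PCDHB4 and PCDHB16 changed sign) and 6 below. Of all genes, 49.8% lay above 0, or 54.8% with centring, and of the other genes of chromosome 5, 65.3% did. The median difference of the beta genes was 0.30, against 0.00 over all genes, and it was smaller where dim genes counted less. It was 0.13 with 32 added to each value on the linear scale, and 0.14 over the 13 beta genes over the lower quartile on both arrays, of which 7 were above 0 and 6 below.

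**Figure D1:**
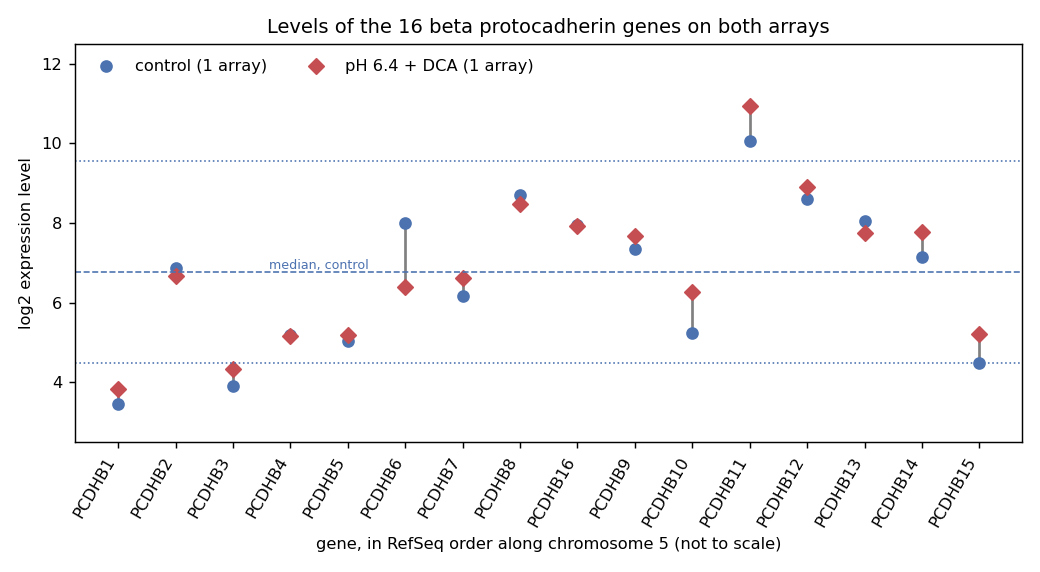
Log2 expression level (vertical axis) of the 16 beta protocadherin genes in RefSeq gene order (horizontal axis) on the control array (circles) and the pH 6.4 + DCA array (diamonds); horizontal lines mark the lower quartile, median and upper quartile of all genes on the control array. The pair of points lies farthest apart for PCDHB6, at 8.01 and 6.40, and next for PCDHB10, at 5.22 and 6.27.

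PCDHB6 (TC0500013242.hg.1) had a log2 level of 8.01 on the control array and 6.40 on the pH 6.4 + DCA array. The difference was -1.61, or 3.05-fold lower, which leaves 32.8% of the control level. Over all genes, 249 had a difference as low or lower, and 13 of 757 genes of chromosome 5 did, PCDHB6 included. The next lowest beta gene was PCDHB13, at -0.30. The level of PCDHB6 passed from above the median of the control array to below the median of the other. The neighbours PCDHB5 and PCDHB7 had differences of 0.14 and 0.46.

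PCDHB10 (TC0500013246.hg.1) had a level of 5.22 on the control array and 6.27 on the pH 6.4 + DCA array, a difference of 1.05, or 2.07-fold. Over all genes, 376 had a difference as high or higher, as did 40 genes of chromosome 5. Both of its levels lay between the lower quartile and the median of the arrays. With 32 added to each value on the linear scale, its difference was 0.66, under 2-fold.

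PCDHB11, PCDHB15 and PCDHB14 had the next differences in the upward direction, each under 2-fold. PCDHB11 (TC0500008882.hg.1) went from 10.06 to 10.95, a difference of 0.88, with a strong signal, over the upper quartile, on both arrays. PCDHB15 (TC0500013248.hg.1) went from 4.48 to 5.21, a difference of 0.73. The lower quartile of all genes on the control array was also 4.48, so this gene started from a weak signal. PCDHB14 (TC0500013247.hg.1) went from 7.16 to 7.78, a difference of 0.63, with both levels over the medians of the arrays.

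At a threshold of 1.5-fold, 4 of the 16 genes, or 25%, were higher and 1 was lower. The higher ones were PCDHB10, PCDHB11, PCDHB14 and PCDHB15, and the lower one was PCDHB6. Over all genes, 10.6% were higher and 11.8% lower at that threshold. The share of higher beta genes thus lay above that of all genes, but it was close to that of their own chromosome. Of 741 other genes of chromosome 5, 24.4% were at least 1.5-fold higher and 7.69% at least 1.5-fold lower. At 2-fold, these shares were 6.61% and 2.83%.

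**Figure D2:**
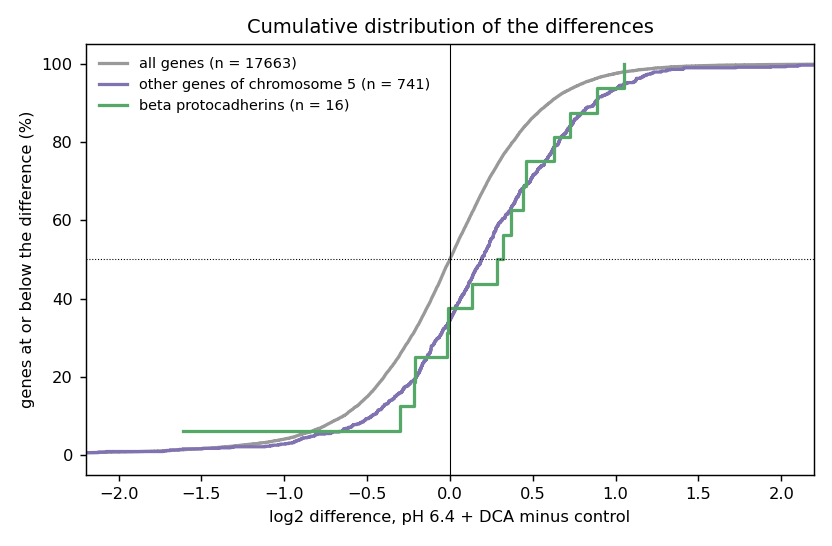
Percent of genes (vertical axis) whose log2 difference, pH 6.4 + DCA minus control, lay at or below the value on the horizontal axis, for all 17663 genes, 741 other genes of chromosome 5 and 16 beta protocadherin genes; the axis is limited to 2.2 on either side. The line of the beta genes, with a median of 0.30, runs near that of chromosome 5, with a median of 0.19, and both lie to the right of the line of all genes at the middle of the plot.

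Of the 11 remaining genes, 6 had differences from 0.14 to 0.46 and 5 had differences from -0.30 to -0.01. PCDHB7 went from 6.15 to 6.61, PCDHB9 from 7.34 to 7.66 and PCDHB12 from 8.61 to 8.89. PCDHB3 went from 3.90 to 4.34 and PCDHB1 from 3.46 to 3.82. Both genes lay under the lower quartile on both arrays and gave weak signals. PCDHB5 went from 5.04 to 5.18.

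Below control were PCDHB13, from 8.06 to 7.76, PCDHB8, from 8.70 to 8.49, and PCDHB2, from 6.87 to 6.66. PCDHB16, at 7.94 and 7.92, and PCDHB4, at 5.18 and 5.17, had nearly the same values on both arrays. In total, 11 of the 16 genes, or 68.8%, had values on the arrays within 0.5 of each other on the log2 scale, as did 71.3% of all genes.

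Along the chromosome, the differences above 0 were more frequent towards the end of the beta cluster that faces the gamma cluster. The 7 genes from PCDHB9 to PCDHB15 in gene order had a median difference of 0.63, and 6 of them were above control, with PCDHB13 the exception. The 9 genes from PCDHB1 to PCDHB16 had a median of -0.01, with 4 above control and 5 below. This division was made after the values were seen and is a description. All 4 genes past 1.5-fold upward lie in the former stretch and the gene past it downward in the latter.

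Measured genes next to the protocadherin clusters also had differences mostly above 0. The 22 neighbours were the 10 nearest measured genes on either side of the 3 clusters and both measured genes between the beta and gamma clusters. Of these, 3 were at least 2-fold higher and none was lower by that rule. Of all genes, 2.51% were higher and 4.12% lower at 2-fold, and of the other genes of chromosome 5, 6.61% and 2.83%. The count of 3 among 22 is small and is not read as a result about the neighbours. A difference above 0 was found for 17 of the 22, or 77.3%, against 65.3% of the other genes of chromosome 5 and 49.8% of all genes. The median of the neighbours was 0.21. The 3 genes past 2-fold were CD14, the co-receptor for bacterial lipopolysaccharide, at 2.11, TAF7, a subunit of the general transcription factor TFIID, at 1.27, and ZMAT2, a zinc finger protein, at 1.12. TAF7 lies past PCDHB15 on the side of the gamma cluster and went from 10.97 to 12.24, while SLC25A2, the mitochondrial ornithine carrier beside it, was at 3.14 and 3.17. DIAPH1, the formin gene past the gamma cluster, differed by 0.73. The non-clustered protocadherin PCDH1, farther on, was at 10.85 and 10.24, a difference of -0.61. The medians of the beta genes, of these neighbours and of the other genes of chromosome 5, at 0.30, 0.21 and 0.19, lay on the same side of 0. Their order is not read as a result, since with 32 added the beta median was 0.13 and that of the neighbours 0.16. Whether the chromosome has a part in the differences of the beta genes was not tested.

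**Figure D3:**
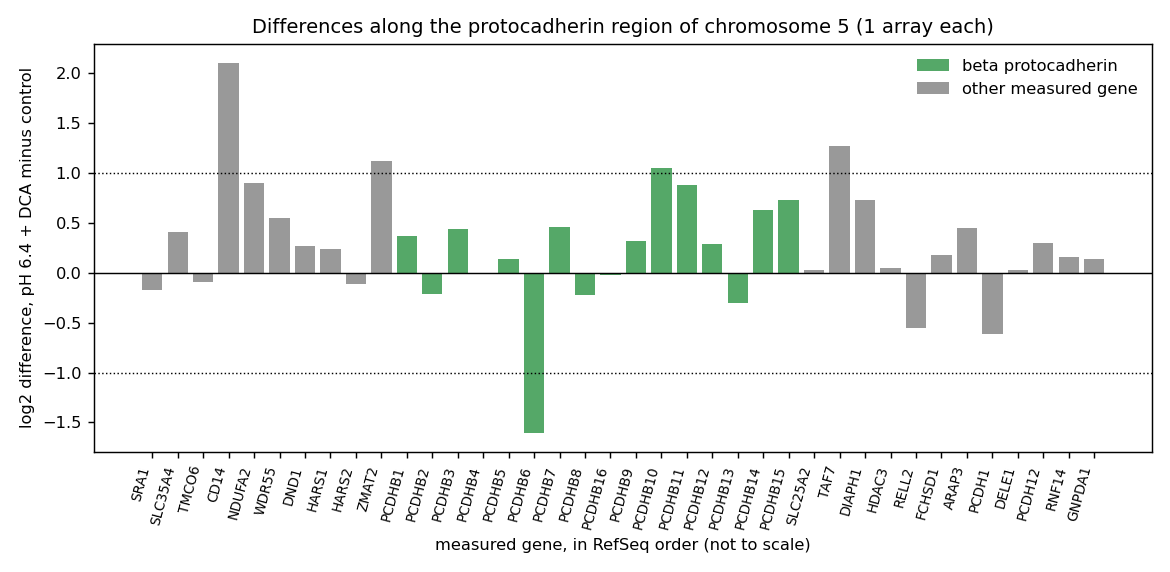
Log2 difference, pH 6.4 + DCA minus control (vertical axis), of the 16 beta protocadherin genes (green) and 22 neighbouring measured genes (grey) in RefSeq gene order (horizontal axis, not to scale), with dotted lines at 2-fold. Bars above 0 prevail on either side of the beta cluster as well as in it, and PCDHB6, at -1.61, is the only bar past 2-fold downward.

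The promoters of the beta genes hold few CpG dinucleotides, the sites of DNA methylation. The 14 promoters held 5 to 12 CpG in 300 bases, with a median of 7.5, against a median of 14 over 34943 promoters, of which 51.6% held more than 12. Relative to their base composition, however, the beta promoters held a median of 0.631 of the CpG expected, and all promoters 0.577. PCDHB10, with 5 CpG, PCDHB15, with 6, and PCDHB14, with 8, had the largest positive differences of the 14 genes. PCDHB13 and PCDHB2, with 10 each, and PCDHB8, with 9, had negative ones. PCDHB9, also with 5 CpG, and PCDHB5, with 6, differed less, by 0.32 and 0.14. Across the 14 genes, which share both arrays, Spearman's rho between CpG count and difference was -0.574. PCDHB6 and PCDHB11, with differences of -1.61 and 0.88, had no promoter sequence and are not part of this value. The correlation is given as a description after the values were seen, and PCDHB3, with 12 CpG and a difference of 0.44, runs the other way. GC content differed as well, at 36.7%, 38% and 35.7% for PCDHB10, PCDHB15 and PCDHB14. For PCDHB13, PCDHB2 and PCDHB8 it was 46.3%, 45.3% and 43.3%, while PCDHB1 and PCDHB3, both above control, had 43%. CpG count and GC content cannot be told apart here, and the part of either was not tested.

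The most alike pair among 91 pairs of beta promoters was PCDHB8 and PCDHB13, with 71.3% identical bases in a global alignment, against a median of 52.4% over all pairs. The differences of these genes were -0.22 and -0.30. The pair next in likeness, PCDHB13 and PCDHB16, with 58% identical bases, had differences of -0.30 and -0.02. After it came PCDHB2 and PCDHB16, with 56.6% and differences of -0.21 and -0.02, and PCDHB16 and PCDHB14, also with 56.6%, had -0.02 and 0.63. PCDHB1, whose element holds C6T, had a difference of 0.37, within the range of the genes with the shorter word.

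**Figure D4:**
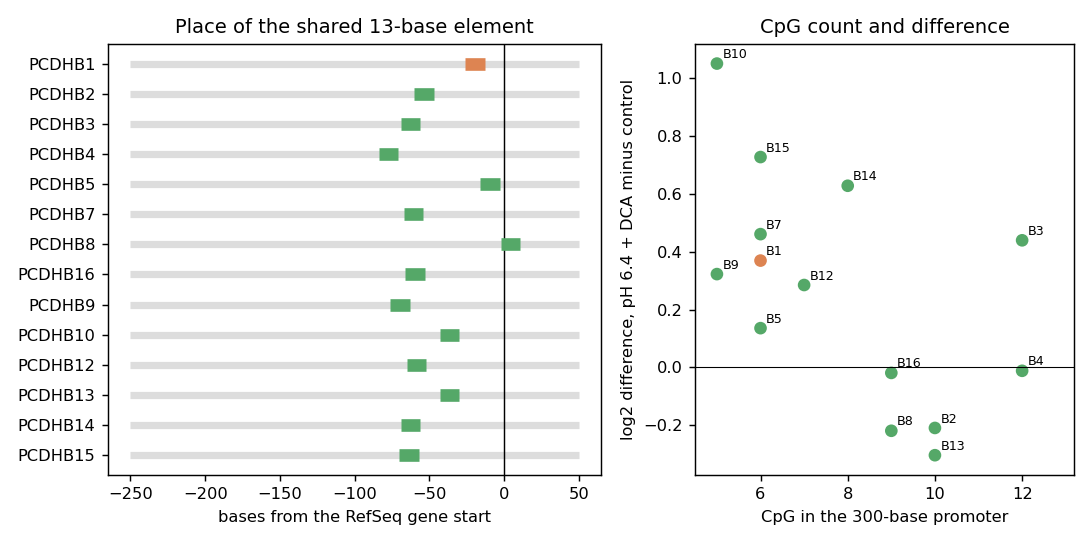
Left, place of the 13-base element (colored bar) in the promoter of each of 14 beta genes, in bases from the RefSeq gene start (horizontal axis); orange marks PCDHB1, which lacks the shorter word. Right, log2 difference, pH 6.4 + DCA minus control (vertical axis), against the number of CpG in the 300-base promoter (horizontal axis); PCDHB10 lies at upper left, with 5 CpG and 1.05, and PCDHB13 at lower right, with 10 CpG and -0.30.

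Genes known to regulate these clusters differed by less than 2-fold. Of 24 such genes listed, 22 were measured, none was at least 2-fold higher or lower, and the median difference was 0.06. At 1.5-fold, 5 were higher and 2 lower. Of all genes, 2.51% were higher and 4.12% lower at 2-fold, and 10.6% and 11.8% at 1.5-fold. A count of none past 2-fold among 22 genes lies near the former shares and is not read as a result about the regulators. CTCF, which binds the promoters and enhancers of the clusters, went from 9.78 to 9.91. NIPBL, which loads cohesin, differed by 0.81, WAPL, which releases it, by 0.68, and the cohesin subunits STAG1 and STAG2 by 0.65 and -0.51. SMC3 and PDS5A, core and regulatory parts of cohesin, had differences of 0.21 and 0.08. The de novo DNA methyltransferases went in different directions, with DNMT3A from 6.68 to 7.51 and DNMT3B from 4.01 to 3.37, the latter under the lower quartile on both arrays. The maintenance methyltransferase DNMT1 went from 7.40 to 7.35, and TET2, which oxidizes methylated cytosine, differed by -0.71. SMCHD1, a chromatin protein needed in mice for methylation and silencing of protocadherin genes, went from 8.44 to 8.19.

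Non-clustered protocadherins and the proteins that cleave or transmit signals from clustered ones also had no member past 2-fold. With 2.51% of all genes higher and 4.12% lower at 2-fold, this is not read as a result about either list. Of 11 non-clustered protocadherins, 6 were above control, and the median difference was 0.00, with PCDH7 at 0.82 and PCDH1 at -0.61 the farthest from 0. Of 18 processing and signalling partners listed, 15 were measured, 5 were above control and the median was -0.18. ADAM10, the membrane protease that sheds protocadherin ectodomains, was at 12.04 on both arrays. The gamma-secretase subunits PSENEN, NCSTN, APH1A and PSEN2 differed by -0.91, -0.52, -0.52 and -0.08. Of the WAVE complex that controls actin, NCKAP1, ABI1, WASF2, BRK1 and CYFIP2 had differences from -0.85 to -0.11, and CYFIP1 had 0.68. PTK2, the focal adhesion kinase, which gamma and alpha protocadherins inhibit in neurons, differed by -0.67, and its relative PTK2B by 0.02. These lists were chosen with earlier results of these arrays known, and nothing is read from their medians beyond the values.

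**Figure D5:**
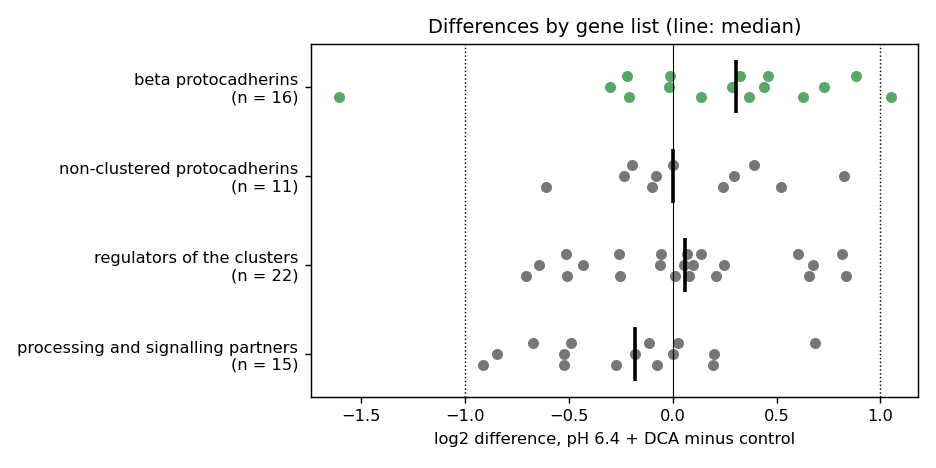
Log2 difference, pH 6.4 + DCA minus control (horizontal axis), of each gene of 4 lists (rows), with a black line at the median of each list and dotted lines at 2-fold; vertical offsets within a row only separate points. The medians are 0.30 for the beta protocadherins, 0.00 for non-clustered protocadherins, 0.06 for regulators and -0.18 for partners, and PCDHB6 and PCDHB10 are the only points past 2-fold. Most of the non-clustered protocadherins gave weak signals.

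The labelled cell type was checked against its markers. All 6 epithelial markers, among them EPCAM and KRT19, were strongly detected, with control levels of 12.18 to 17.08 and levels of 10.61 to 16.45 after exposure. All 6 differences were below 0, with a median of -0.74, and EPCAM and KRT18 passed 2-fold, at -1.57 and -1.47. Of all genes, 2.51% were higher and 4.12% lower at 2-fold. The 6 measured neuronal markers had levels from 2.82 to 8.03 and from 3.02 to 7.99, the highest being MAP2, and none passed 2-fold. Of 6 measured fibroblast markers, DCN, at 8.83 and 13.29, and LUM, at 4.10 and 5.28, passed 2-fold upward and THY1, at 6.10 and 5.10, passed it downward, while the collagen genes COL1A1 and COL1A2 had differences of -0.30 and -0.25. LUM gave a weak signal on the control array, under its lower quartile of 4.48. The 4 measured leukocyte markers had levels from 3.48 to 10.16 and from 3.59 to 10.37, with differences of 0.04 to 0.21. In a bulk culture, fewer cells that express a gene and less RNA per cell cannot be told apart. The part of the marker differences in those of the beta genes was not tested.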

How the data were processed

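Total RNA was amplified, biotin-labelled and run on Clariom S arrays. The authors used Transcriptome Analysis Console 4.0 (per the submitters' processing notes) and deposited log2 values of 21448 rows for 2 arrays, used here as they stand. The log2 scale follows from the values. How background and scaling between arrays were handled, and on which genome build, is not given in the sources used here.

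Symbols came from the platform annotation, with the row of the highest mean per gene, and gene order and promoters from RefSeq (GRCh38.p14). Differences, counts and medians were computed, and for promoters CpG counts, observed over expected CpG, a rank correlation and alignment identities, with no test. Members and lists were chosen with earlier results of these data known. The naming rule took members past 2-fold or with the highest level or largest difference in each direction and, from each list, genes past 2-fold and the 2 with the highest mean; further genes were named after their values were seen. Alternatives were median centring, quantile normalization, a lowess correction with span 0.3, 32 added on the linear scale, a filter at the 25th percentile, other rows per gene, no pseudogenes, and thresholds of 1.5-fold and 3-fold. Median centring, quantile normalization, the lowess correction and the 2-fold calls were tested on simulated data with planted changes larger than 2-fold. The list summaries and the promoter steps were not tested in this way.

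The number of arrays limits the precision. No gene was targeted, so the treatment labels were not checked on the arrays. Beta genes resemble each other, and signal shared between them, or with PCDHB1-AS1, which overlaps PCDHB1, was not tested. Python 3.11.15, numpy 2.4.6, pandas 2.3.3, scipy 1.17.1, statsmodels 0.14.6 and matplotlib 3.10.9 were used.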

Additional observations from a re-analysis of the deposited data

How the results depend on the processing

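With 32 added on the linear scale, no beta gene was at least 2-fold higher (0 against 1), since PCDHB10 was then at 0.66. The median difference was 0.13 against 0.30, because added signal shrinks the differences of dim genes. PCDHB6 stayed at least 2-fold lower, at -1.31. At 1.5-fold, 4 beta genes were higher, and at 3-fold 0 were, with PCDHB6 lower at both. With centring, quantile normalization, the lowess correction or the filter on dim rows, 1 gene was higher and 1 lower, and the median lay between 0.21 and 0.36. Other rows per gene and leaving out pseudogenes could change nothing, since each beta gene had 1 row and no pseudogene was among the genes with 1 symbol. PCDHB4 and PCDHB16, near 0, changed sign with centring, at 0.04 and 0.03, and PCDHB16 also with quantile normalization, at 0.03. Over all genes, 444 were at least 2-fold higher in the main setting and 248 with 32 added. No paired analysis was possible because each condition had 1 array, and no array could be left out. Medians planned for the alpha, gamma and C-type genes could not be computed, since none of them was among the genes with 1 symbol.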
